A study of Mus musculus with 15 samples.

Results

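The comparison set 2 populations of mouse OT-I CD8 T cells side by side, the CD44loCD62L+ cells of a culture with a cocktail and the CD44+CD62L- cells of a culture with IL-2. The cocktail held 2 cytokines, IL-7 and IL-21, and 2 small molecules, TWS119 and 2-deoxyglucose. Both came from CD8 T cells of OT-I mice, whose transgenic T cell receptor recognises the ovalbumin peptide SIINFEKL, and neither carried another genetic change or a further treatment in the labels. The T cells were mixed 2:1 with SIINFEKL-coated dendritic cells grown from bone marrow for 7 days, kept in their medium for 14 days with a passage after a week, and sorted on CD44 and CD62L. Members were the libraries carrying these labels, 3 for each population, which makes 6 of the 15 libraries of the series. The other 9 were 3 of cocktail CD44+CD62L- cells, 3 of cocktail CD44+CD62L+ cells from the same kind of culture, and 3 of naive OT-I cells with 0 days in vitro. The naive gate is given as CD44lo in the labels and as CD44- in the design text. The 3 libraries of a population were technical replicates, so every p-value and SD below measures the spread between libraries and not between mice or cultures, and the number of mice is not given. The populations differ in culture medium and in sort gate at once, and the effects of these cannot be told apart from this pair alone.

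IL-2 drives the division of activated CD8 T cells and their differentiation into effector cells, which carry cytotoxic granules and no longer home to lymph nodes. IL-7 and IL-21 signal through the same shared gamma chain as IL-2 and are associated with survival and with less differentiated states. 2-deoxyglucose resembles glucose but blocks its breakdown by glycolysis, and TWS119 is an inhibitor of glycogen synthase kinase 3, the kinase that marks beta-catenin for degradation. CD44 rises on T cells after activation, so cells with low CD44 and high CD62L after antigen stimulation share a surface phenotype with naive cells.

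Expression was given as normalized FPKM, fragments per length of transcript, and how the libraries were scaled to each other is not given. FPKM sums ran from 669341 to 781949 over the 15 libraries, and absolute depth is unknown. From the steps between low values, the relative depth of the CD44loCD62L+ libraries was 1.227 to 1.247 times that of the first IL-2 library, and that of the other IL-2 libraries was at most 1.015 times. This depth is read from scaled values, so it can reflect the scaling and need not equal the number of fragments sequenced. For genes of 10 to 100 FPKM the median coefficient of variation between libraries was 1.803% in CD44loCD62L+ and 1.95% in IL-2 cells. The T cell genes Cd3e (286 against 241 FPKM) and Cd8a (309 against 218 FPKM) were abundant in both. Markers of other cells were present at levels that differed between lists. The 13 B cell markers summed to 19.62 to 19.98 FPKM in CD44loCD62L+ and 47.8 to 49.3 in IL-2 libraries, with Ms4a1 and Pax5 at 0 in both. Of these sums, Igj alone made a mean of 0.112 FPKM in CD44loCD62L+ and 25.95 in IL-2 cells. In each population 3 of the 13 markers reached a mean of 1 FPKM. The 35 dendritic cell and macrophage markers summed to 193.9 to 199.8 FPKM in CD44loCD62L+ and 209.8 to 214.9 in IL-2 libraries, with Lyz1, Fcgr1, C1qa and Ccl17 at 0 in all IL-2 libraries and none at 0 in all CD44loCD62L+ libraries. The 20 erythroid, platelet and neutrophil markers summed to 2.16 to 2.49 and 0.668 to 0.913 FPKM, the 10 NK cell markers, some of which CD8 effector cells express, to 654 to 662 and 789 to 801, and the 10 CD4 and regulatory T cell markers to 162.5 to 163.4 and 226 to 227. Gamma delta T cell markers summed to at most 0.0610 FPKM in both. The part of these cells in the results was not tested.

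Of 11242 genes tested, 1771 (15.8%) differed between the 2 populations, 837 higher (7.45%) and 934 lower (8.31%) in CD44loCD62L+ cells. A gene counted as changed at a limma adjusted p under 0.05 (Benjamini-Hochberg over all genes tested) and an absolute log2 fold change of 1 or more, computed on log2(FPKM + 1), which understates the change of low genes. The minimum fold, and not the p-value, decided most calls, since 9987 genes passed the adjusted p and 10064 (89.5%) had no overlap between the 3 libraries of each population. The middle of the distribution lay at a log2 fold change of -0.01, with the 5th and 95th percentiles at -1.26 and 1.251. With a pseudocount of 5 in place of 1 the count of changed genes was 911, and with a minimum log2 fold change of 0.58 or 2 it was 4191 or 322. Changes of 8-fold or more, a log2 fold change of at least 3, were found in 85 genes, 48 of them higher and 37 lower. The root mean square difference over all tested genes was 0.905 log2 units, the largest of the 6 pairs of cultured populations, where the next was 0.745 (cocktail CD44+CD62L+ against IL-2 cells). The pair was chosen as the most distant of the cultured populations, so this rank is no finding. Naive cells lay 1.06 from CD44loCD62L+ and 1.38 from IL-2 cells. With 3 libraries on each side the smallest two-sided p of an exact permutation test is 0.1, so the model across all genes was used. In a sorted pool, more cells expressing a gene and more RNA per cell cannot be told apart.

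**Figure D1:**
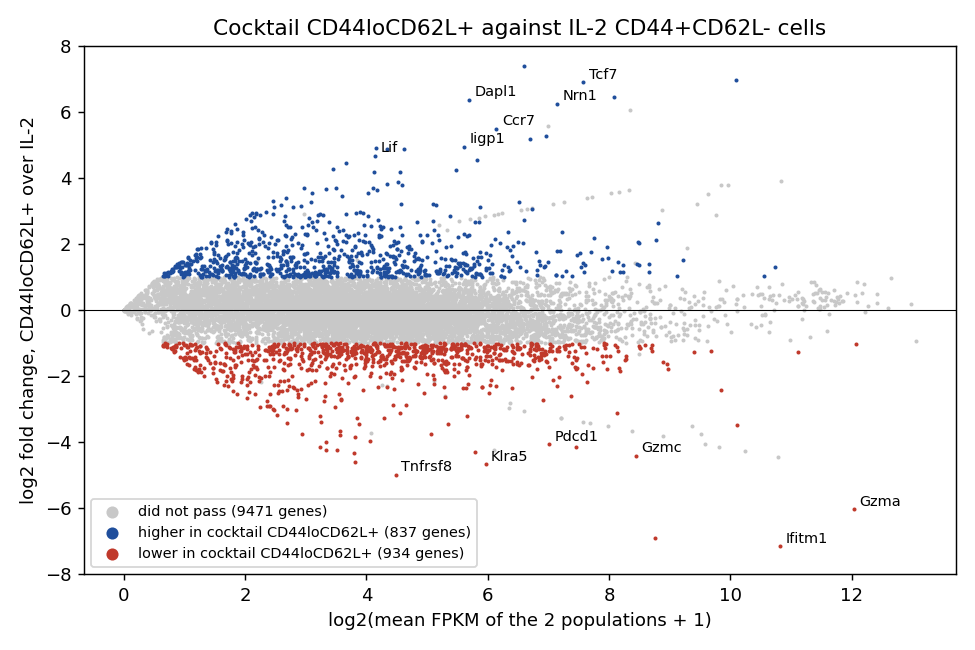
Each point is a gene tested, with its log2 mean FPKM of the 2 populations on the x axis and its log2 fold change, cocktail CD44loCD62L+ over IL-2 cells, on the y axis; blue genes were higher (837) and red lower (934). Tcf7, Dapl1 and Nrn1 lie near the top and Ifitm1 and Gzma at the bottom right, and 9 genes lie outside the axis.

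The largest rises were in genes typical of naive and of central memory cells. Of 25 such genes tested, 18 rose and none fell in CD44loCD62L+ cells, with a median log2 fold change of 1.92. Of all genes tested, 7.45% rose and 8.31% fell, the background for every list compared with IL-2 cells. The list of naive and central memory genes was not independent of the sort, which gated on naive-like surface markers. At the RNA level Cd44, which encodes a sort marker, was not lower in the CD44lo cells (31.9, 30.7 and 31.3 FPKM) than in the IL-2 cells (23.2, 24.7 and 23.7 FPKM), and its log2 fold change of 0.38 ± 0.03 did not reach the minimum fold. Naive cells had 7.24 FPKM of Cd44, and the cocktail CD44+ populations 38.8 (CD62L-) and 38.5 (CD62L+).

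Tcf7 (chr11:52252371-52283014), which encodes the transcription factor TCF-1 of naive and memory T cells, measured 379, 374 and 375 FPKM in CD44loCD62L+ libraries against 2.43, 2.13 and 1.92 in IL-2 libraries. The log2 fold change was 6.90 ± 0.04 (SE; limma adjusted p = 7.1e-20). Ccr7 (chr11:99144196-99155077), the chemokine receptor that leads T cells into lymph nodes, measured 137, 136 and 138 FPKM against 2.13, 1.85 and 2.26, a log2 fold change of 5.49 ± 0.04 (limma adjusted p = 2.0e-19). For both genes the populations were far apart, and naive cells were higher still, with 679.9 FPKM of Tcf7 and 301 of Ccr7. Dapl1 (chr2:59484653-59505020) measured 105, 99.3 and 99.3 FPKM against 0.186, 0.368 and 0.186 and Nsg2 (chr11:32000463-32059202) 37.9, 39.2 and 37.5 against 0.219, 0.349 and 0.42, both known as transcripts of naive T cells. The interleukin-7 receptor gene Il7r rose from 32.3 ± 0.69 (mean ± SD, n = 3 libraries, as below) to 124 ± 0.257 FPKM.

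Transcription factors of memory cells followed, with 9 of 16 higher and none lower. Lef1, the partner of TCF-1, rose from 11.9 ± 0.42 to 41.7 ± 0.933 FPKM, and Bach2, a repressor of effector differentiation, from 0.975 ± 0.153 to 10.4 ± 0.176. Satb1, a chromatin organiser, rose from 9.06 ± 0.257 to 72.1 ± 0.395 FPKM, and Id3, an inhibitor of E proteins, from 2.25 ± 0.473 to 15.5 ± 0.487. Eomes, a T-box factor of memory and NK cells, had 39.7, 40.2 and 39.9 FPKM in CD44loCD62L+ and 10.7, 10.2 and 9.97 in IL-2 libraries, a log2 fold change of 1.86 ± 0.02. Bcl6 rose at a low level, from 0.458 ± 0.0857 to 2.44 ± 0.0378 FPKM. The means of these 6 factors were above those of both cocktail CD44+ populations, by less than the minimum fold.

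Effector transcription factors were lower in 6 of 18 and higher in 2, with a median log2 fold change of -0.52. Prdm1, which encodes Blimp-1, measured 1.06, 1.03 and 0.992 FPKM against 9.74, 9.94 and 9.87 in IL-2 cells, and Tbx21, which encodes T-bet, 15.6, 15.4 and 16.4 against 37.6, 37.8 and 38.2. Batf3 fell from 24.9 ± 0.815 to 3.895 ± 0.368 FPKM and was also lower than in both cocktail CD44+ populations (16.6 FPKM in CD62L- and 13.5 in CD62L+ cells). The 2 that rose were Ikzf2, which encodes Helios (3.29 ± 0.113 to 15.3 ± 0.23 FPKM), and Rora. Id2, an effector-associated inhibitor of E proteins, was at 289 ± 1.246 FPKM against 225 ± 1.54, and Gata3 at 10.5 ± 0.493 against 5.91 ± 0.0882. Neither reached the minimum fold.

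Genes that hold lymphocytes in quiescence rose in 9 of 21 and fell in none (median log2 fold change 0.70). Pik3ip1, an inhibitor of PI3 kinase, measured 56.3, 57.5 and 57.7 FPKM against 9.31, 10.1 and 10.4, and Txnip, an inhibitor of glucose uptake, 350.4, 353 and 355 against 75.3, 76.3 and 76.8. Klf2, which drives genes of T cell recirculation, measured 52.8, 53.4 and 51.9 FPKM in CD44loCD62L+ and 25.1, 25.96 and 25.1 in IL-2 libraries, a log2 fold change of 1.03 ± 0.02 close to the minimum. The cocktail CD44+ populations had Klf2 levels of 15.5 (CD62L-) and 17.3 FPKM (CD62L+), and the CD44loCD62L+ cells were higher than both of them (log2 fold changes 1.71 and 1.55, limma adjusted p = 4.1e-16 and 5.8e-16). S1pr1, the receptor for exit from lymph nodes, had the same order of levels, 35.3 ± 0.562 FPKM in CD44loCD62L+, 18.4 ± 0.281 in IL-2, 10.7 ± 0.209 in cocktail CD44+CD62L- and 14.1 ± 0.118 in cocktail CD44+CD62L+ cells. Its log2 fold change of 0.90 over IL-2 cells missed the minimum, while those over the cocktail CD44+ populations, 1.63 and 1.27, passed. Naive cells stood well above all cultured cells for both genes, with 339.7 FPKM of Klf2 and 176 of S1pr1.

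**Figure D2:**
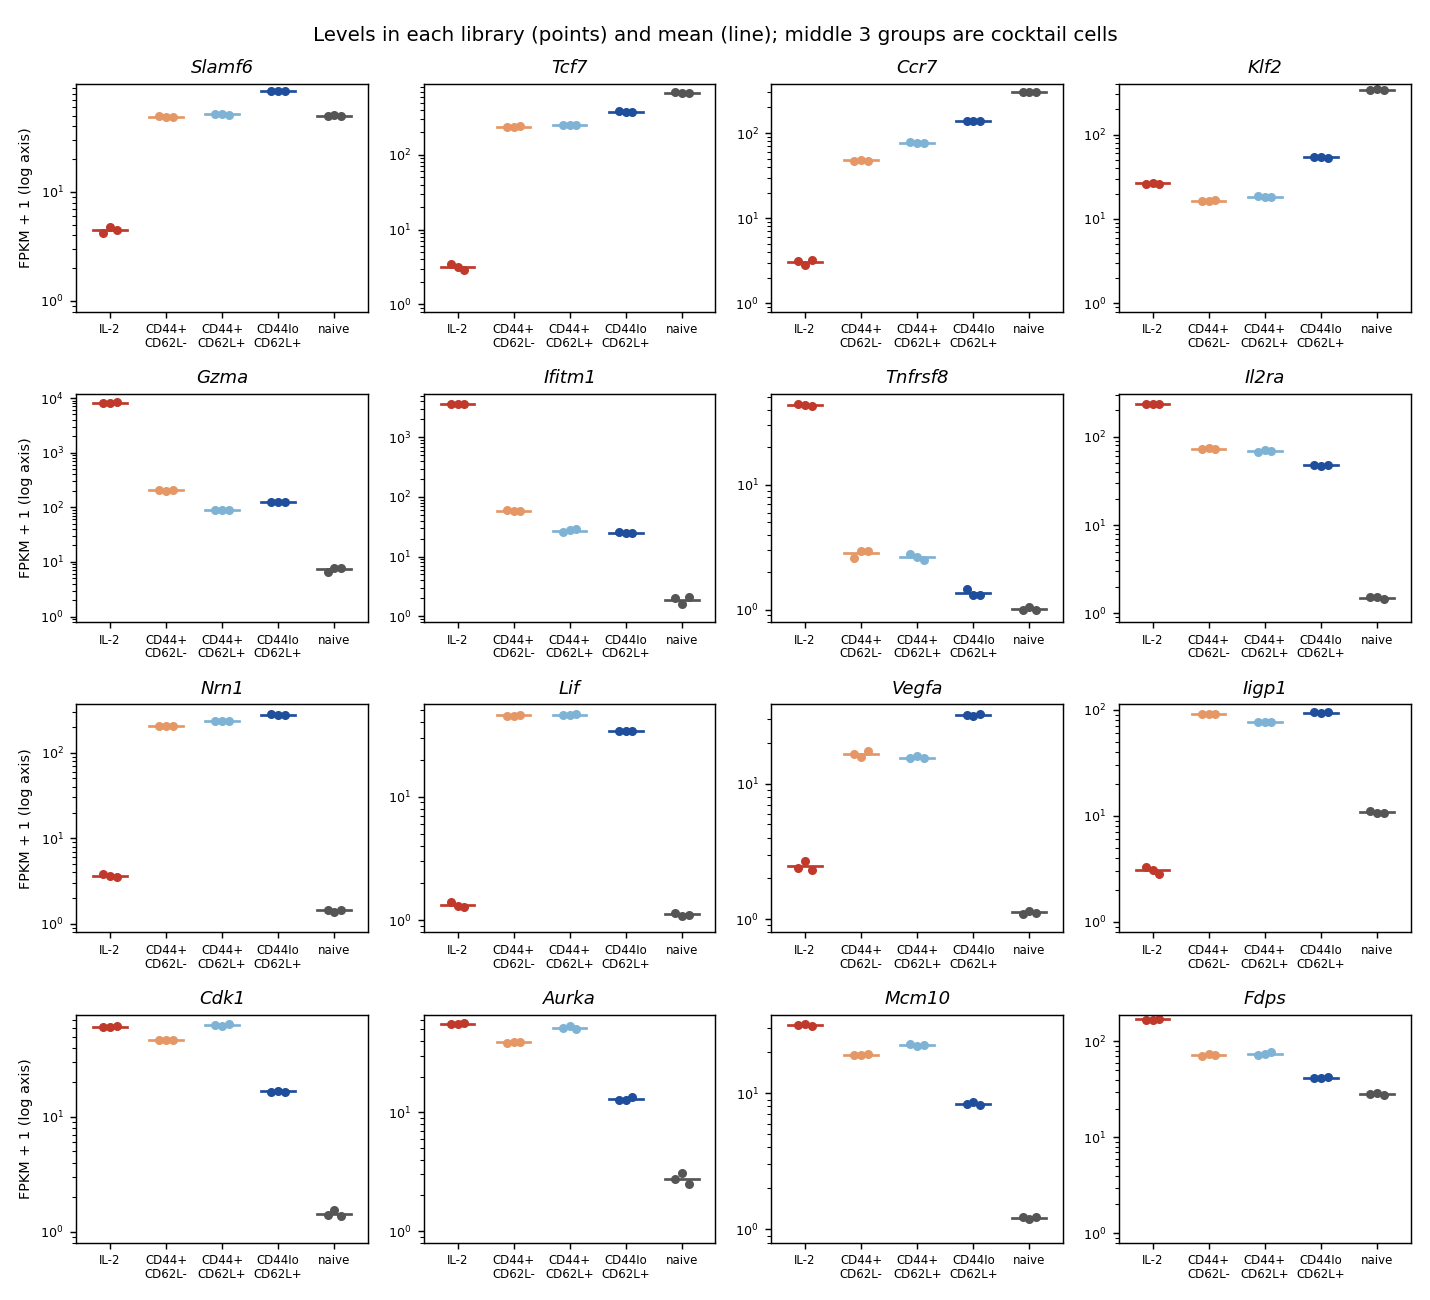
Levels of 16 genes in the 15 libraries as FPKM + 1 on a log axis, with a point for each library and a line for each mean; from left to right IL-2 cells, cocktail CD44+CD62L-, CD44+CD62L+ and CD44loCD62L+ cells, and naive cells. Gzma and Ifitm1 are low in all 3 cocktail populations, Cdk1 and Aurka are lower in CD44loCD62L+ than in the other cultured cells and lowest in naive cells, and Nrn1 and Lif are high in the cocktail populations and low in naive cells.

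Cytotoxic granule genes moved in both directions, with 8 of 25 lower and 2 higher, of which Gzmb rests on values listed at 0. Gzma (chr13:113093825-113100981), which encodes the granule protease granzyme A, measured 124, 125 and 125 FPKM in CD44loCD62L+ libraries and 8204, 8241 and 8288 in IL-2 libraries, a log2 fold change of -6.04 ± 0.04 (limma adjusted p = 3.9e-19). The level was 66.2 times as high in IL-2 cells, and the libraries of each population lay within a few percent of each other. Gzmc fell from 662 ± 3.95 to 30.03 ± 0.916 FPKM and Gzmf from 13.3 ± 0.25 to 0.0525 ± 0.0223. Prf1, which encodes the pore-forming perforin, measured 14.7, 15.7 and 15.4 FPKM against 81.1, 82.7 and 83.1. Granzyme genes Gzmd, Gzme and Gzmk and the granule transport gene Rab27a also fell. Members of the granzyme cluster are similar in sequence, and how shared reads were assigned is not given in the sources used here.

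Gzmb, the granzyme B gene, was listed at 892, 896 and 900.0 FPKM in CD44loCD62L+ libraries and at 0 in all 3 IL-2 libraries. Zeros here may stand for estimates that failed, since Eef1a1, a gene that every cell expresses, was at 0 in all 15 libraries. No fold is given for Gzmb for that reason. Without it, the median log2 fold change of the granule genes was -0.38 in place of -0.31. Other granule genes did not reach the minimum fold: Nkg7 had 611 ± 3.36 FPKM against 757 ± 5.39, Fasl 29.3 ± 0.971 against 45.6 ± 0.768 and Lamp1 141 ± 1.51 against 78.5 ± 0.64. Apart from Gzmb, Ctsl was the gene counted as higher.

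Targets of IL-2 and its signal transducer STAT5 were lower in 9 of 32 and higher in 6, a count that includes Gzmb with its listed zeros in IL-2 cells. Il2ra, the alpha chain that gives the IL-2 receptor its high affinity, measured 46.5, 45.8 and 47.6 FPKM against 234, 234 and 236, a log2 fold change of -2.31 ± 0.02 (limma adjusted p = 8.9e-18). Il2rb, the beta chain, measured 245, 240.2 and 238 FPKM against 746, 755 and 747. The feedback inhibitor gene Socs2 fell from 51.5 ± 0.552 to 8.27 ± 0.544 FPKM. Cish, another STAT5 target of the same family, did not reach the minimum fold, with 94.6 ± 0.282 FPKM in CD44loCD62L+ and 116 ± 0.774 in IL-2 cells. In the opposite direction, Pim2 rose from 30.7 ± 1.27 to 98.8 ± 0.687 FPKM. Socs3, an inhibitor induced by STAT3, rose from 8.197 ± 0.0855 to 29.6 ± 0.648 FPKM. Besides Gzmb, the others counted as higher on this list were Lif, Il4ra and Tnfrsf18.

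Cytokine receptors changed in both directions, with 7 of 26 higher and 4 lower. Il4ra rose from 26.05 ± 0.519 to 79.8 ± 0.107 FPKM and Il6st, the shared gp130 chain, from 2.12 ± 0.0177 to 11.2 ± 0.0667. The interferon receptor chains Ifngr2 and Ifnar2 and the receptor genes Il27ra and Il10rb rose as well. The fallen ones were Il2ra, Il2rb, Il12rb1 and Il1rl1, the IL-33 receptor, which measured 0.0977, 0.146 and 0.0629 FPKM against 7.26, 7.22 and 7.71. Among 22 JAK, STAT and SOCS genes, 3 rose, Socs3 and Socs5 among them, and Socs2 fell.

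Of 14 secreted cytokines tested, 5 were higher and 3 lower. Ifng, which encodes interferon gamma, measured 5.22, 4.78 and 5.004 FPKM against 42.96, 43.4 and 43.2, a log2 fold change of -2.88 ± 0.08 (limma adjusted p = 3.1e-13). Csf1 fell from 11.5 ± 0.169 to 1.15 ± 0.0561 FPKM, while Csf2, which encodes GM-CSF, rose from 0.577 ± 0.0407 to 7.11 ± 0.377. Lif (chr11:4257557-4272514), a cytokine of the IL-6 family, measured 32.8, 32.9 and 33.01 FPKM against 0.405, 0.311 and 0.288, and Penk, which encodes proenkephalin, 9.78, 9.97 and 9.65 against 0.256, 0.168 and 0.142. Both were near 0 in naive cells, with 0.117 FPKM of Lif and 0.0382 of Penk. Penk was lower in CD44loCD62L+ than in cocktail CD44+CD62L+ cells (25.6 FPKM). The third gene counted as lower, Il10, was listed at 0 in all 3 CD44loCD62L+ libraries, and such a 0 can be a failed estimate.

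Chemokine genes were lower in 3 of 7 and higher in 2. The inflammatory chemokines Ccl3 (6.13 ± 0.0595 against 25.6 ± 0.432 FPKM), Ccl4 (16.6 ± 0.728 against 82.9 ± 0.478) and Ccl5 (71.8 ± 3.39 against 325 ± 2.12) fell. Xcl1, the ligand for cross-presenting dendritic cells, rose from 15.4 ± 0.992 to 80.4 ± 1.76 FPKM, and was highest in cocktail CD44+CD62L+ cells (163 FPKM). Of 16 chemokine and egress receptors, Ccr7 rose, and Cxcr6 (249 ± 2.398 to 93.1 ± 2.02 FPKM), Ccr4 and Xcr1 fell.

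Inhibitory receptors split into lower and higher genes, 5 and 4 of 20. Pdcd1 (chr1:94038305-94052553), which encodes PD-1, measured 13.9, 12.8 and 13.7 FPKM against 243, 242 and 242, a log2 fold change of -4.07 ± 0.07 (limma adjusted p = 3.6e-15). Havcr2, which encodes TIM-3, measured 5.66, 5.86 and 5.89 against 73.3, 72.2 and 74.9. Cd244, the receptor 2B4, fell from 20.9 ± 0.145 to 0.746 ± 0.0646 FPKM, and Tigit and Entpd1 fell too. Lag3 gave overlapping values, 95.01, 97.2 and 95.6 FPKM against 97.5, 95.6 and 93.5 (log2 fold change 0.01 ± 0.05, limma adjusted p = 0.89), and Ctla4 was at 129.9 ± 0.7 against 200.2 ± 1.02 without reaching the minimum fold. The members that rose were Btla (8.65 ± 0.196 to 26.2 ± 0.587 FPKM), Lilrb4 (28.2 ± 0.26 to 118 ± 0.605), Nt5e and Tox, a factor of exhausted T cells that measured 5.61, 5.605 and 5.62 against 0.7, 0.588 and 0.543 FPKM. Naive cells had the highest Tox level, 20.6 FPKM.

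NK-type receptors fell in 3 of 13 and rose in 2. Klra5 (chr6:129898996-129917650), a Ly49 receptor of a family with similar sequences, measured 3.82, 3.58 and 3.71 FPKM against 119, 123 and 115. Klrc1, which encodes NKG2A, fell from 173 ± 6.51 to 66.9 ± 1.21 FPKM, while its partner gene Klrd1 was at 604 ± 2.24 against 364 ± 1.44 without reaching the minimum fold. Cd226, an activating receptor, rose from 21.7 ± 0.7 to 64.1 ± 0.745 FPKM.

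In the TNF superfamily and among co-stimulatory receptors, 10 of 29 rose and 3 fell. CD30 and its ligand went in opposite directions. Tnfrsf8 (chr4:145267137-145315164), the receptor CD30, measured 0.47, 0.322 and 0.305 FPKM against 43.1, 42.6 and 41.4, and Tnfsf8 (chr4:63831308-63861347), its ligand, 105, 109 and 106 against 4.07, 3.38 and 3.43. Their log2 fold changes were -4.99 ± 0.06 and 4.55 ± 0.04. Fas, the death receptor, measured 42.3, 42.4 and 40.7 FPKM against 2.203, 1.84 and 1.76, and Tnfrsf9, which encodes 4-1BB, 47.8, 47.6 and 47.6 against 152, 153 and 152. Cd27, Tnfrsf14, Tnfrsf18, Tnfrsf25, Tnfsf4 and Tnfsf14 were among the others that rose.

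Mitosis genes had the largest share of lower members of any list, 85.0%. Of 40 tested, 34 were lower in CD44loCD62L+ than in IL-2 cells and none was higher, the other 6 were below IL-2 cells by less than the minimum fold, and the median log2 fold change was -1.34. Ccnb1, which encodes cyclin B1, measured 21.7, 21.5 and 21.5 FPKM against 108, 108 and 107, a log2 fold change of -2.27 ± 0.03 (limma adjusted p = 6.8e-17). Cdk1, the kinase that cyclin B1 activates, measured 15.6, 15.9 and 15.6 against 60.5, 60.5 and 60.9, and Aurka, the kinase of the spindle poles, 11.8, 11.8 and 12.5 against 54.6, 54.2 and 55.8. Mki67, which encodes the proliferation antigen Ki-67, fell from 123 ± 0.733 to 53.2 ± 0.203 FPKM. The levels stayed above those of naive cells, which rest outside the cell cycle and had 0.402 FPKM of Ccnb1, 0.432 of Cdk1 and 1.24 of Mki67.

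The low mitosis level set the CD44loCD62L+ cells apart from the other cocktail cells as well. In the comparison with cocktail CD44+CD62L- cells, 37 of the 40 mitosis genes were lower, where 1.48% of all genes tested were lower, 0.489% higher and 1.97% changed. In that with cocktail CD44+CD62L+ cells, 39 of 40 were lower, where 2.26% of all genes were lower, 0.418% higher and 2.68% changed. The medians of the list were -1.24 and -1.59 log2 units. Set beside the IL-2 cells, the medians were -0.14 for cocktail CD44+CD62L- and 0.21 for cocktail CD44+CD62L+ cells. Cdk1, for example, had 45.9 ± 0.333 FPKM in cocktail CD44+CD62L-, 62.2 ± 1.23 in cocktail CD44+CD62L+ and 60.6 ± 0.242 in IL-2 cells, against 15.7 ± 0.195 in CD44loCD62L+ cells. CD44, which defined the gate, is induced by activation, and the part of the gate in this difference was not tested.

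DNA replication genes fell in 31 of 47 and rose in none (median -1.24). Rrm2, the subunit of ribonucleotide reductase made in S phase, measured 56.6, 54.7 and 56.5 FPKM against 233, 231 and 231, and Mcm10, a factor of origin firing, 7.28, 7.58 and 7.24 against 30.5, 31.02 and 30.2. Here the other cocktail cells lay between, with Rrm2 at 137 FPKM in CD44+CD62L- and 162 in CD44+CD62L+ cells, and 10 and 22 of the 47 genes were lower in CD44loCD62L+ cells than in these 2 populations. The list's medians over IL-2 cells were -0.45 and -0.30 for them. Of 14 G1 cyclins and CDK inhibitors, 6 fell and 1 rose. Cdkn1b, which encodes p27, the inhibitor of resting cells, rose from 24.3 ± 0.532 to 65.7 ± 1.18 FPKM, while the inhibitor genes Cdkn1a (p21) and Cdkn2a (p16 and p19) fell, from 68.8 ± 0.677 to 24.7 ± 0.99 and from 66.8 ± 1.07 to 10.1 ± 1.23. Ccne1 fell from 68.2 ± 1.26 to 16.4 ± 0.417 FPKM. Myc, a driver of cell growth, was at 87.5, 84.8 and 86.7 FPKM against 82.8, 83.8 and 81.9, a log2 fold change of 0.06 ± 0.02.

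Promoters of the cell cycle genes share short elements, and 4 are printed because their genes carry the drop described above. The CHR element (TTTGAA), bound by the DREAM and B-Myb complexes, CCAAT, the box bound by NF-Y, and the E2F motif TTTNNCGC were searched on both strands from 250 bases before to 50 after the start in RefSeq sequences of GRCm38.p6. Of 34 mitosis genes with a promoter, 24 (70.6%) held TTTGAA and 25 (73.5%) CCAAT. Tested genes matched 8934 distinct promoter symbols, and among these the shares were 14.4% and 43.5%, among 754 of the lower genes 23.9% and 52.0%, among 649 of the higher genes 15.3% and 40.7%, and among all promoters of that length 17.9% and 37.4%. The E2F motif was found in 15 of 38 replication genes (39.5%), 10.2% of tested genes, 12.997% of lower genes, 6.63% of higher genes and 5.17% of all promoters. TTTGAA shares 5 letters with the TCF/LEF motif CTTTGA, so a site can match both. A match is a description of letters and was not tested for binding. The runs below go 5′ to 3′ on the gene's strand, from 250 bases before to 30 after the start, in lower case with the motif in capitals on either strand: TTTGAA for Cdk1 (chr10:69352883-69353162, minus strand), CCAAT for Ccnb1 (chr13:100786457-100786736, minus strand) and Aurka (chr2:172370541-172370820, minus strand), and the E2F motif for Orc1 (chr4:108579204-108579483, plus strand), a subunit of the origin recognition complex.
Cdk1: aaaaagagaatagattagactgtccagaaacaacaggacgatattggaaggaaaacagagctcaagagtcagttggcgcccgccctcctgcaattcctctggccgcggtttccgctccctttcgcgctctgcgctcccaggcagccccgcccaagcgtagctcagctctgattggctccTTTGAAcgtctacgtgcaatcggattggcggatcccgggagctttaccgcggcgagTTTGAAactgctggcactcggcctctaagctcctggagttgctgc
Ccnb1: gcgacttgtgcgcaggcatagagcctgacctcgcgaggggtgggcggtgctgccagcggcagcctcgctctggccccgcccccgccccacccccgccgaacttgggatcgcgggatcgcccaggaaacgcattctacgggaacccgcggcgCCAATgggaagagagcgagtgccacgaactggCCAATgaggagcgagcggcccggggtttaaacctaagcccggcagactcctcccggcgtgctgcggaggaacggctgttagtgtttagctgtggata
Aurka: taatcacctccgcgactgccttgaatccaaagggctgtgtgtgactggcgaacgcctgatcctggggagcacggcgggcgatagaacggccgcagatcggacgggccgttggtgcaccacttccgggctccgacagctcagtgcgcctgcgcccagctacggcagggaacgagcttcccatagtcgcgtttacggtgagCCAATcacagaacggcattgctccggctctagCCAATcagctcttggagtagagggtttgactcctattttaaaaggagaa
Orc1: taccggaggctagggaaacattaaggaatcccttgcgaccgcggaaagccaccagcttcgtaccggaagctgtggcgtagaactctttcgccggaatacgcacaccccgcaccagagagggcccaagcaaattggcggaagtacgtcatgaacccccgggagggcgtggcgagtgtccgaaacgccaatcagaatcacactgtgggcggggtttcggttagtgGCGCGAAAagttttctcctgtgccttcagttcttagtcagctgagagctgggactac

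Only a window around the start was searched, so the closeness of the matches to it is no finding. The printed matches of Cdk1 began at -71 and -15 and those of Ccnb1 at -99 and -67, counted from the start of the gene. Those of Aurka began at -51 and -19 and that of Orc1 at -27. Aurka also held TTTGAA at 32, past the printed run. Mcm7, a replication gene whose promoter is not printed, held the E2F motif at -165 and 16. Orc1 itself fell from 12.9 ± 0.183 to 2.95 ± 0.0631 FPKM.

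**Figure D3:**
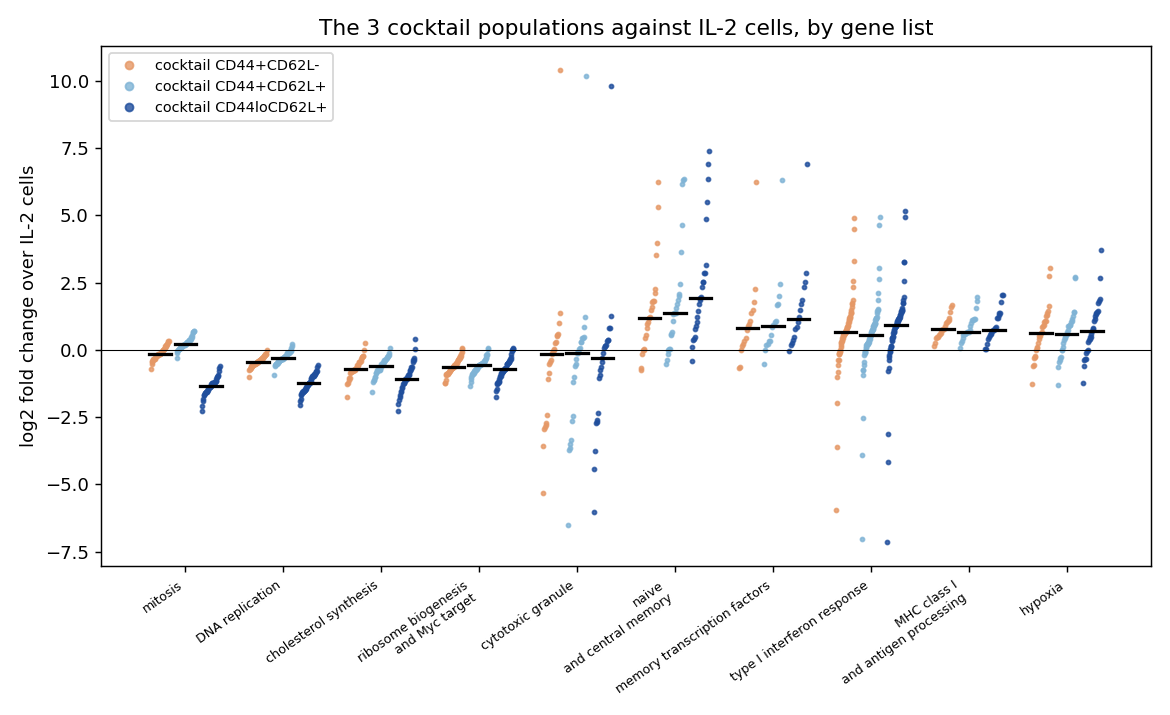
Log2 fold change over IL-2 cells of the genes of 10 lists in cocktail CD44+CD62L- (orange), CD44+CD62L+ (light blue) and CD44loCD62L+ cells (dark blue), with a point for each gene and a black bar at the median; the 3 columns of a list share the IL-2 libraries. The mitosis medians are -0.14, 0.21 and -1.34, and the topmost granule gene is Gzmb, which is listed at 0 in IL-2 cells.

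Many genes of cholesterol and fatty acid synthesis fell. Of 32 tested, 18 fell and none rose (median -1.07). Fdps, which makes farnesyl diphosphate, measured 40.7, 40.8 and 41.2 FPKM against 168, 168 and 172, a log2 fold change of -2.02 ± 0.02 (limma adjusted p = 3.1e-17). Idi1, the enzyme before it, fell from 70.7 ± 1.77 to 18.6 ± 0.467 FPKM, and Scd1, a fatty acid desaturase, from 8.61 ± 0.123 to 0.984 ± 0.0905. The pathway genes Sqle and Lss were among the others that fell. For the cocktail CD44+ populations the medians of this list over IL-2 cells were -0.71 (CD62L-) and -0.59 (CD62L+).

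In the lists of ribosome biogenesis, protein folding and protein breakdown, a minority of genes fell. Of 45 ribosome biogenesis genes and Myc targets, 10 fell and none rose (median -0.71), among them Nme1, a nucleoside kinase (271 ± 1.79 to 79.5 ± 1.81 FPKM), and Srm, spermidine synthase (90.8 ± 2.17 to 31.2 ± 0.547). Of 37 proteasome genes 7 fell (median -0.76), of 30 ER chaperone and secretory genes 9 (median -0.55) and of 10 heat shock genes 3, with none higher in these lists. Sdf2l1, an ER quality control gene, measured 19.6, 18.3 and 18.3 FPKM against 99.5, 99.01 and 97.1, and Hsp90aa1 129, 130.2 and 128 against 437, 442 and 445. In the amino acid response list, 4 of 32 fell (12.5%) and 3 rose (9.375%). These shares lay near the 8.31% and 7.45% of all genes and are no result about the list. The fallen ones included the serine pathway genes Phgdh (260.0 ± 3.42 to 94.4 ± 1.53 FPKM), Psat1 (114 ± 1.99 to 40.1 ± 0.601) and Shmt1 (46.6 ± 0.412 to 9.15 ± 0.639). Ddit3, which encodes the stress factor CHOP, rose from 10.6 ± 0.166 to 40.4 ± 1.999 FPKM. Cytosolic ribosomal protein genes went slightly the other way, with 51 of 56 above IL-2 cells and a median of 0.31, while by the criteria Rps13 rose and Rpl26 and Rpl34 fell.

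Energy metabolism split between mitochondrial and glycolytic genes. Of 54 oxidative phosphorylation genes 8 fell and none rose (median -0.68), and of 25 TCA cycle genes 4 fell and none rose (median -0.60). Cycs, which encodes cytochrome c, measured 28.97, 29.5 and 29.4 FPKM against 79.9, 80.1 and 80.01. The share that fell among the oxidative phosphorylation genes, 14.8%, and among the TCA cycle genes, 16.0%, lay above the 8.31% of all genes. Of 28 fatty acid oxidation genes 2 fell and 1 rose, near that background; Cpt1a, the entry enzyme, was at 14.04 ± 0.204 FPKM against 23.9 ± 0.441, and Acadm at 27.8 ± 1.08 against 17.6 ± 0.281, neither past the minimum fold.

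Glycolysis genes, by contrast, rose in 6 of 25 and fell in none, in cells grown with 2-deoxyglucose. The genes that rose were Pdk1, Aldoc, Pfkfb3, Slc2a3, Ldhb and Gpi1. The list's median over IL-2 cells was 0.45, against 0.43 in cocktail CD44+CD62L- and 0.45 in cocktail CD44+CD62L+ cells. Aldoc measured 32.1, 32.5 and 32.7 FPKM against 10.02, 10.9 and 10.2, and Pfkfb3, which makes the activator of phosphofructokinase, 23.6, 23.6 and 23.6 against 7.89, 7.86 and 8.11. The main lactate dehydrogenase gene Ldha (1405 ± 7.396 against 1803 ± 13.3 FPKM) and Hk2 (10.2 ± 0.249 against 15.9 ± 0.194) did not reach the minimum fold. Genes of the hypoxia response rose in 12 of 29 and fell in 1 (median 0.72), and Pdk1 and Pfkfb3 belong to both lists. Hypoxia medians over IL-2 cells were 0.62 in cocktail CD44+CD62L- and 0.58 in cocktail CD44+CD62L+ cells. Vegfa, the vascular growth factor, measured 31.2, 30.4 and 31.5 FPKM against 1.39, 1.69 and 1.301, a log2 fold change of 3.71 ± 0.05 (limma adjusted p = 2.6e-16). P4ha2, a collagen prolyl hydroxylase, measured 9.61, 9.72 and 10.1 against 0.662, 0.766 and 0.611, and Ndrg1 rose from 9.69 ± 0.471 to 38.97 ± 0.963 FPKM. Hif1a, the factor that drives them, was at 111 ± 0.241 FPKM against 64.2 ± 0.438 (log2 fold change 0.78). In naive cells Vegfa was at 0.121 and P4ha2 at 0.243 FPKM.

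P4ha2 has the hypoxia response letters ACGTG beginning at -78 and 10, and its promoter is shown as that of a gene which rose with this list (chr11:54100674-54100953, plus strand, GRCm38.p6, capitals mark ACGTG). Of 27 hypoxia genes 20 (74.1%) held ACGTG on either strand, against 30.1% of tested genes, 25.9% of higher genes, 29.2% of lower genes and 19.6% of all promoters, so these 5 letters are common.
P4ha2: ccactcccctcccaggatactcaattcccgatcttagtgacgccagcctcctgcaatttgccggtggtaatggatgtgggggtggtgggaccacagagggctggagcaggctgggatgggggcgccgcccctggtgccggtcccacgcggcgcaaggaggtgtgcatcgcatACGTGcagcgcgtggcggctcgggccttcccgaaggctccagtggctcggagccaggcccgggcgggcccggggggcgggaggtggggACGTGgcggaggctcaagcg

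The interferon response list, the longest, held the largest number of genes that rose, and the IFITM genes ran against it. Of 61 tested, 29 rose (47.5%, against 7.45% of all genes) and 3 fell (4.92%) in CD44loCD62L+ cells (median 0.93). The naive and central memory genes (72%) and the memory transcription factors (56.25%) had larger shares that rose. Over IL-2 cells the interferon list had medians of 0.66 in cocktail CD44+CD62L- and 0.56 in cocktail CD44+CD62L+ cells. Iigp1 (chr18:60376027-60392634), an immunity-related GTPase, measured 93.4, 92.9 and 93.4 FPKM against 2.32, 2.07 and 1.82, a log2 fold change of 4.94 ± 0.04 (limma adjusted p = 2.6e-18). Ms4a4c (chr19:11404770-11427246) measured 198, 202 and 200.2 against 4.45, 4.32 and 4.82 and Ifi44 13.8, 14.7 and 14.9 against 0.584, 0.501 and 0.684. Stat2, a transducer of interferon signals, was below the minimum fold at 49.7 ± 0.274 against 27.1 ± 0.537. Guanylate binding proteins (Gbp2 to Gbp7), Igtp, Irgm1, Irgm2, Tgtp1, Tgtp2, Ifit1, Ifit3, Oasl1, Oasl2, Rsad2 and Usp18 were among the others. Tgtp1 and Tgtp2 are near-identical copies whose reads may have been split.

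The 3 that fell were Ifitm1, Ifitm2 and Ifitm3, neighbours on chromosome 7 that restrict virus entry. Ifitm1 (chr7:140967221-140969825) had the largest fall of all named genes, with 24.96, 24.1 and 23.5 FPKM against 3624, 3565 and 3564 and a log2 fold change of -7.15 ± 0.08 (limma adjusted p = 3.0e-17). Ifitm3 (chr7:141009586-141010770) measured 18.7, 17.1 and 17.5 against 327, 336 and 334, and Ifitm2 55.4, 58.6 and 57.2 against 504, 487 and 510.0. The other cocktail cells and naive cells also had low Ifitm1 values, at 57.3 FPKM in CD44+CD62L- and 26.3 in CD44+CD62L+ and 0.887 in naive cells. The 3 genes are similar in sequence, so their separate values are uncertain where reads are shared.

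The interferon response element, a pair of GAAA runs with any 2 bases between them, was found on either strand in 26 of 46 interferon genes with a promoter (56.5%), against 3.87% of tested genes, 9.40% of higher genes, 3.18% of lower genes and 3.44% of all promoters. Ifitm3 and Gbp2, the latter chosen after its values were seen, are printed because both hold it and moved in opposite directions, with log2 fold changes of -4.15 and 3.28. The capitals mark the element or its complement, beginning at 2 and 19 in Ifitm3 (chr7:141010715-141010994, minus strand) and at -59 in Gbp2 (chr3:142620413-142620692, plus strand).
Ifitm3: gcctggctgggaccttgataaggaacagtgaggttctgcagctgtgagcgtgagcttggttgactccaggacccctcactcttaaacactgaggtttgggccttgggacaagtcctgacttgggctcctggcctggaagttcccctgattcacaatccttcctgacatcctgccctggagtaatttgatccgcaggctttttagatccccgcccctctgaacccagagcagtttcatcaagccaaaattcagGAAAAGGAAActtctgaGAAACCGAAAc
Gbp2: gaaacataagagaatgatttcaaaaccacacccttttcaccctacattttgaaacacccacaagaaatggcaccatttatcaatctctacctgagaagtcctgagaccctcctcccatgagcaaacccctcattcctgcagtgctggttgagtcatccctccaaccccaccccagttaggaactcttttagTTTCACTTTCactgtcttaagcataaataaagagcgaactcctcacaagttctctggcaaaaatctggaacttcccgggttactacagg

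MHC class I and antigen processing genes were above IL-2 cells in all 21 tested, and 8 passed (median 0.76). Over IL-2 cells the medians were alike in cocktail CD44+CD62L- (0.77) and cocktail CD44+CD62L+ cells (0.68). By the criteria, none of the 21 differed between CD44loCD62L+ cells and either of these populations. H2-Q7 measured 577, 569.9 and 567 FPKM against 139.8, 138 and 131, and H2-Q4 577, 579 and 577 against 138, 139.7 and 141. Genes of the Q region are close copies of each other, so their separate levels are uncertain. H2-K1 and Nlrc5, the transactivator of class I genes, also rose. The immunoproteasome subunit Psmb9 was at 372 ± 1.67 FPKM against 279 ± 4.72 and Psmb8 at 549 ± 6.09 against 531 ± 5.81, neither past the minimum fold.

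The MHC class II genes H2-Ab1, H2-Eb1 and Cd74 and the myeloid gene Lyz2 rose as well. H2-Aa and Ciita, also on the list, were not among the genes that passed. H2-Ab1 measured 20.3, 19.6 and 19.8 FPKM against 0.591, 0.651 and 0.623, Cd74, the invariant chain, 9.95, 10.5 and 9.91 against 0.775, 0.465 and 0.437, and Lyz2, which encodes lysozyme, 11.4, 11.4 and 11.7 against 0.363, 0.476 and 0.442. These belong to the dendritic cell and macrophage markers, of which 4 of 22 tested rose (18.2%, also H2-Eb1) and 2 fell (9.09%). Of all genes, 7.45% rose and 8.31% fell. As given above, the summed markers were lower in CD44loCD62L+ than in IL-2 libraries. The fallen ones were Clec12a (15.9 ± 0.27 to 0.831 ± 0.0488 FPKM) and Fcer1g (15.9 ± 1.23 to 3.27 ± 0.407). Naive cells also had 14.98 FPKM of H2-Ab1, 57.3 of Cd74 and 8.22 of Lyz2. H2-Ab1 was at 13.7 FPKM in cocktail CD44+CD62L- and 17.6 in cocktail CD44+CD62L+ cells. The cultures began with bone marrow dendritic cells, and their part in these values was not tested.

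Adhesion and surface genes changed in both directions. Of 25 integrins and adhesion molecules 5 rose and 3 fell. Itga4, the alpha chain of VLA-4, measured 43.4, 44.9 and 43.5 FPKM against 2.21, 2.18 and 2.31, a log2 fold change of 3.80 ± 0.02 (limma adjusted p = 7.0e-20), and Crtam rose from 2.296 ± 0.271 to 24.1 ± 0.373. The integrins of tissue-resident cells Itgae (CD103) and Itga1 (CD49a) fell, and Itgav fell from 22.9 ± 0.186 to 9.26 ± 0.145 FPKM. Of 21 glycan enzymes 7 fell and 2 rose. Gcnt1, the enzyme of core 2 O-glycans found on effector T cells, fell from 8.91 ± 0.181 to 0.813 ± 0.112 FPKM. St8sia1, which makes the ganglioside GD3, rose from 0.141 ± 0.0314 to 8.94 ± 0.186.

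S100 proteins, annexins and galectins fell in 6 of 24 and rose in none. S100a4 measured 177, 183 and 178 FPKM against 2001, 2022 and 2050, and S100a6 288, 288 and 288 against 1563, 1563 and 1544, both calcium-binding proteins of effector and memory cells. Anxa1 fell from 141 ± 2.403 to 26.9 ± 1.59 FPKM. Naive cells had the lowest levels, with 4.31 FPKM of S100a4, 5.43 of S100a6 and 0.792 of Anxa1.

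Of 33 T cell receptor signalling genes 4 rose and none fell, among them Dgka, a diacylglycerol kinase that dampens receptor signals (119.8 ± 1.31 to 350.4 ± 1.26 FPKM), Txk (6.51 ± 0.294 to 23.6 ± 0.849) and Cd6 (22.7 ± 0.814 to 75.02 ± 1.102). NF-kappaB genes rose in 7 of 22 and fell in none, with the inhibitor gene Nfkbia at 52.05, 52.1 and 51.8 FPKM against 9.54, 10.2 and 10.4 and Tnfaip3, which encodes A20, at 21.4, 21.1 and 21.6 against 4.94, 5.02 and 4.43. Immediate early genes split, with 5 of 28 higher and 4 lower. Jun rose from 15.2 ± 0.615 to 74.4 ± 0.233 FPKM and Egr3 from 1.79 ± 0.159 to 8.62 ± 0.167, while Egr1 fell from 81.01 ± 1.05 to 20.2 ± 0.327 and the phosphatase genes Dusp4 and Dusp5 from 19.8 ± 0.787 to 2.15 ± 0.0454 and from 79.5 ± 1.14 to 14.8 ± 0.866.

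The survival gene Bcl2 measured 105, 105 and 106 FPKM against 25.6, 25.6 and 26.4, a log2 fold change of 1.99 ± 0.02 (limma adjusted p = 1.7e-18), and Bcl2l11, which encodes the death factor BIM, 61.4, 61.6 and 62.8 against 20.9, 20.8 and 20.9. Both rose, while Bcl2l1, which encodes the survival factor BCL-XL, did not reach the minimum fold at 16.9 ± 0.197 against 29.5 ± 0.746. In all, 3 of 21 apoptosis genes rose and 2 fell. Of 25 p53 targets 5 rose (20%) and 1 fell (4%). Of 37 lysosome and autophagy genes 4 rose (10.8%), among them Ctss (24.5 ± 0.724 to 112 ± 2.403 FPKM), and none fell. The share of lysosome and autophagy genes that rose lay near the 7.45% of all genes and is no result about the list.

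Wnt, Notch and TGF-beta pathway genes rose in 3 of 31 (9.68%) and fell in 4 (12.9%). These shares lay near the 7.45% and 8.31% of all genes and are no result about the list. TWS119 acts on the Wnt pathway, and its part in these values was not tested. Apart from Tcf7 and Lef1, Smad3 rose, from 4.78 ± 0.0498 to 23.9 ± 0.227 FPKM. Wnt10b (chr15:98770712-98778150), a secreted Wnt ligand, measured 0.194, 0.15 and 0.234 FPKM against 18.5, 17.99 and 17.7, and the co-receptor gene Lrp5 fell from 5.74 ± 0.0946 to 1.06 ± 0.0872. Rbpj, the Notch transcription factor, fell from 100.8 ± 0.122 to 31.7 ± 0.416 FPKM. Of 35 chromatin enzymes 4 rose (11.4%) and 3 fell (8.57%), also near the shares of all genes. Kdm5b, a histone demethylase, measured 9.47, 9.45 and 9.59 against 1.21, 1.14 and 1.17 FPKM, and the maintenance methylation genes Dnmt1 (119 ± 0.932 to 49.3 ± 0.396) and Uhrf1 (124 ± 1.41 to 44.6 ± 0.529) fell. Of 22 nutrient and metal transporters 5 fell and 1 rose, among them Cd36 (5.21 ± 0.0788 to 0.0636 ± 0.0356 FPKM) and the metallothionein gene Mt1 (455 ± 8.23 to 161 ± 1.33).

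**Figure D4:**
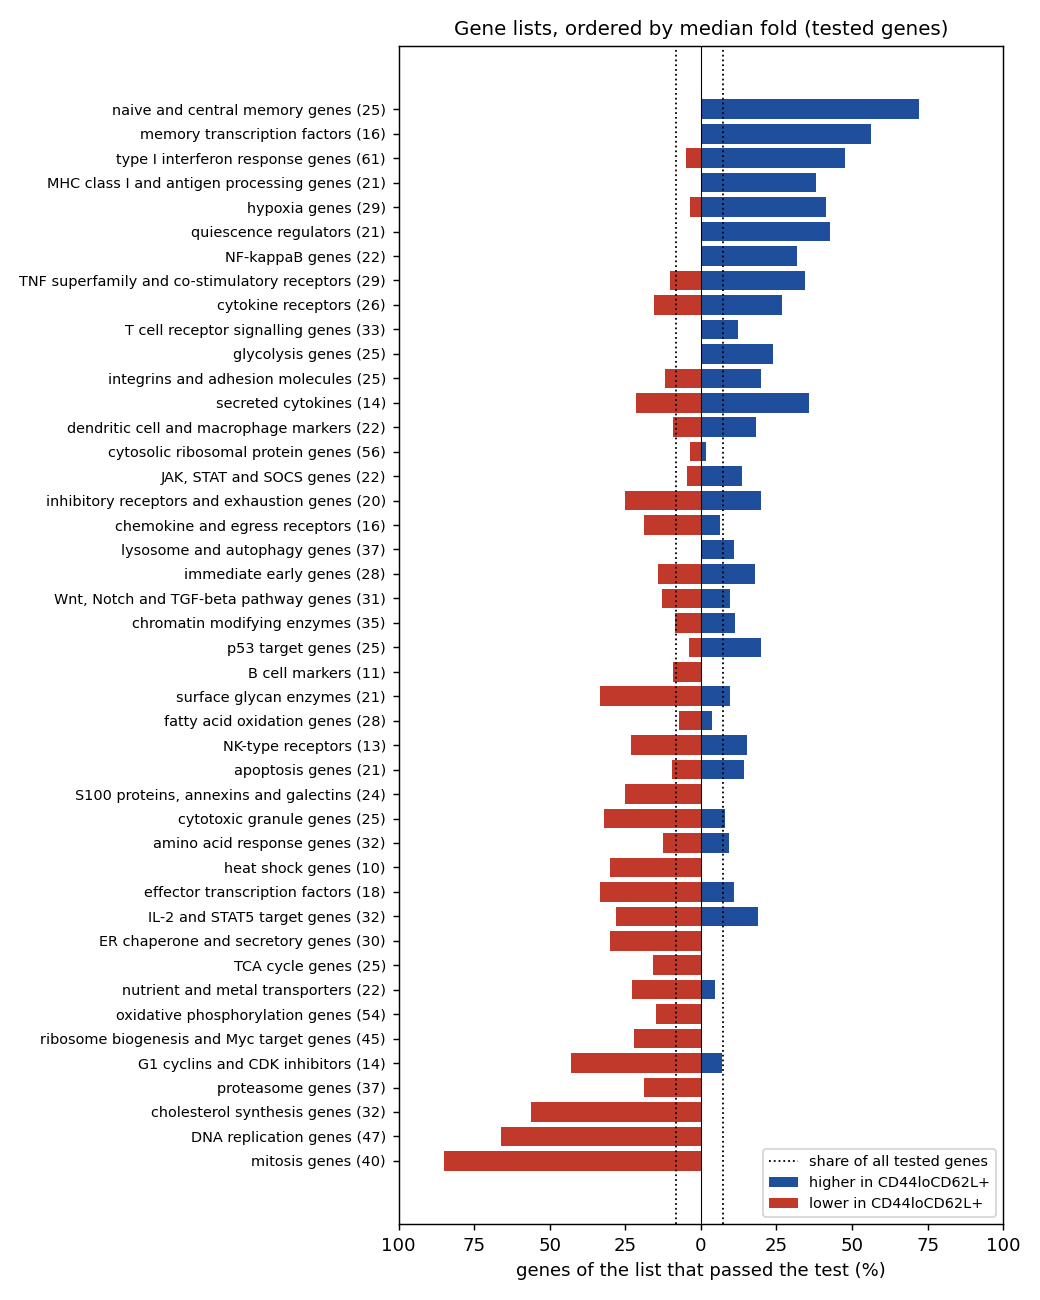
Share of each list's tested genes that were higher (blue, right) or lower (red, left) in CD44loCD62L+ than in IL-2 cells, for lists with at least 10 tested genes, ordered by median log2 fold change, with the number of tested genes in brackets; dotted lines mark the 7.45% higher and 8.31% lower of all genes tested. The naive and central memory genes stand at the top and the mitosis genes at the bottom.

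Several of the largest changes belonged to none of these lists. Nrn1 (chr13:36725361-36735131), which encodes neuritin, measured 279.6, 277 and 274 FPKM against 2.86, 2.63 and 2.53, a log2 fold change of 6.24 ± 0.03 (limma adjusted p = 7.7e-21). The integrin gene Itga7 (chr10:128933818-128958282) measured 23.3, 23.1 and 23.7 against 0.108, 0.0709 and 0.161, and Tgm2 (chr2:158116402-158146436), a transglutaminase, 19.9, 19.4 and 20.2 against 0.0205, 0.132 and 0.0921. These 3 were not naive genes, with 0.437, 0.154 and 0.367 FPKM in naive cells. Slamf6 (chr1:171917515-171953170), a receptor of less differentiated CD8 T cells, measured 83.9, 83.9 and 82.8 FPKM against 3.22, 3.75 and 3.49. Gbp11 (chr5:105323042-105346472), annotated as a polymorphic pseudogene, measured 43.04, 43.03 and 43.7 against 1.399, 1.46 and 1.44, and Serpina3f (chr12:104214544-104221129), a protease inhibitor gene, 32.3, 31.7 and 32.6 against 0.804, 0.842 and 0.838.

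Several of the largest falls were in genes best known from other cells. Igj, the joining chain of antibodies, measured 0.103, 0.0871 and 0.147 FPKM in CD44loCD62L+ and 25.9, 25.5 and 26.4 in IL-2 libraries. The B cell genes Ms4a1 and Pax5 were at 0 in both, while 3 of the 13 B cell markers reached a mean of 1 FPKM in each. Esm1 (chr13:113209659-113218098), which encodes endocan, fell from 20.7 ± 0.639 to 0.147 ± 0.0824 FPKM. Gja5 (chr3:96904693-97077416), which encodes connexin 40, measured 0.00963, 0.00948 and 0.00959 against 18.2, 17.8 and 18.4. Gpr15 (chr16:58717433-58719070), a homing receptor of the gut, measured 0.516, 0.66 and 0.59 against 19.9, 21.05 and 22.2. The enzyme genes B4galnt4 (chr7:141061104-141072400) and Sult2b1 (chr7:45729983-45784669) fell from 30.4 ± 0.362 to 1.01 ± 0.119 and from 25.4 ± 1.603 to 0.826 ± 0.119 FPKM. Pparg, a lipid-sensing nuclear receptor, fell from 8.89 ± 0.403 to 0.203 ± 0.0281.

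To place the other populations on the changed genes, each gene's level was put on a scale from 0 in IL-2 cells to 1 in CD44loCD62L+ cells, on log2(FPKM + 1). The genes were chosen for a difference between these ends, so values between them are partly fixed by the choice, and this is a description without a test. Cocktail CD44+CD62L- cells had a median position of 0.74 on the 837 higher genes and 0.63 on the 934 lower ones, and cocktail CD44+CD62L+ cells 0.77 and 0.66. The lower genes reached further towards IL-2 cells, with 25% of them below 0.42 in CD44+CD62L- and below 0.35 in CD44+CD62L+ cells. Naive cells spread more widely. On the higher genes their median was 0.85, and they lay beyond the CD44loCD62L+ level on 348 genes, such as Tcf7, Ccr7 and Dapl1, and below the IL-2 level on 141, such as Nrn1, Lif, Vegfa and P4ha2. On the lower genes the median was 1.30, and they lay beyond the CD44loCD62L+ level on 677 of 934, with Gzma, Cdk1 and Il2ra among them.

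**Figure D5:**
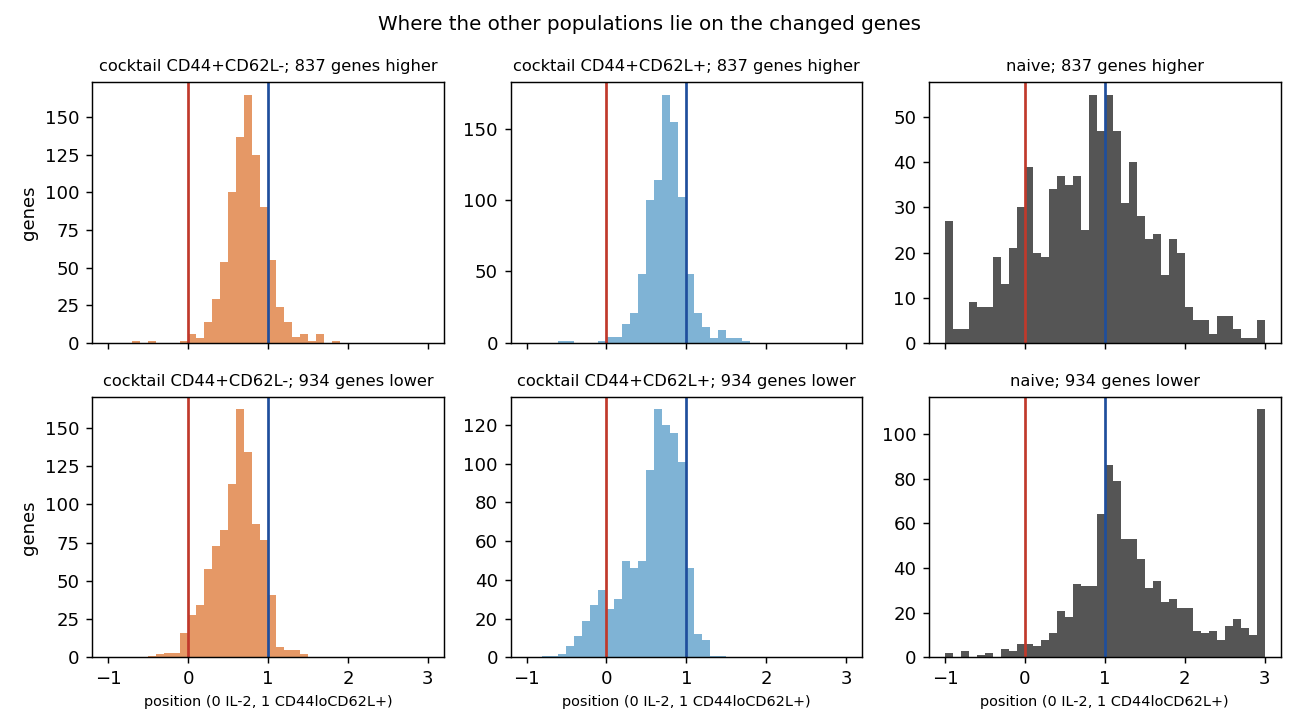
Number of changed genes by position on the scale from IL-2 (0, red line) to CD44loCD62L+ cells (1, blue line), for the 837 higher (top) and 934 lower genes (bottom) in cocktail CD44+CD62L-, cocktail CD44+CD62L+ and naive cells; genes beyond the axis are counted in the end bars. Medians were 0.74, 0.77 and 0.85 on the higher genes and 0.63, 0.66 and 1.30 on the lower ones.

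Few genes separated the CD44loCD62L+ cells from the other cocktail cells. They differed in 221 genes from CD44+CD62L- and in 301 from CD44+CD62L+ cells, and most of these were lower in the CD44loCD62L+ cells (166 and 254). A pseudocount of 0.1 gave 463 and 495 genes and one of 5 gave 94 and 178, and a minimum log2 fold change of 0.58 gave 939 and 987 and one of 2 gave 14 and 12. Of the 25 naive and central memory genes, 8 were higher than in CD44+CD62L- and 6 than in CD44+CD62L+ cells, and none was lower. Itga7, for example, had 23.3 ± 0.309 FPKM in CD44loCD62L+ cells, 8.68 ± 0.221 in CD44+CD62L- and 9.37 ± 0.367 in CD44+CD62L+ cells, and Pik3ip1 57.2 ± 0.78, 25.3 ± 0.0389 and 23.4 ± 0.15. Nsg2 and Kdm5b were higher than in both as well. Tcf7, by contrast, differed from neither by the minimum fold, with 237 ± 2.24 FPKM in CD44+CD62L- and 249 ± 2.41 in CD44+CD62L+ cells. Of the 25 granule genes 1, Gzmc (90.3 ± 1.04 FPKM in CD44+CD62L- cells), was lower than in CD44+CD62L- cells and 0 differed from CD44+CD62L+ cells, counts near the 1.97% and 2.68% of all genes and no result about the list. Among the 61 interferon genes, 1 was higher and 2 lower than in CD44+CD62L- cells, and 1 was higher and none lower than in CD44+CD62L+ cells.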

How the data were processed

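RNA of 15 sorted libraries, 3 from each of 5 populations, was measured by RNA-seq. The values are FPKM, deposited by the authors as a table of 23284 gene entries. TopHat2 2.0.9, Cuffdiff 2.1.1 and the mouse build mm10 are named in the submitters' processing notes, and their settings are not given. FPKM keeps no absolute depth. Low values gave the relative depth: 68.7% of 17806 ratios came within 0.05 of whole numbers against 10% by chance, too few to recover reads. Of the entries, 6039 were at 0 in every library.

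The 11242 genes whose mean reached 1 FPKM in some population were fitted on log2(FPKM + 1) with limma 3.58.1 in R 4.3.3, with population as the only term over all 15 libraries and a mean-variance trend. A run on values simulated with the spread between these libraries checked the code only. It says nothing about the spread between cultures or about failed estimates. Changed means a Benjamini-Hochberg adjusted p under 0.05 over all genes tested and an absolute log2 fold change of 1 or more. Errors beside fold changes are SE. Gene positions are GENCODE spans on GRCm38, and promoters come from RefSeq (GRCm38.p6), where 8962 tested genes matched by symbol, to 8934 distinct promoter symbols since some share a current symbol. Figures were drawn in Python 3.11.15 with matplotlib 3.10.9.

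The comparison and the 49 gene lists (1248 of 1259 genes matched, 113 in 2 or more lists) were chosen with earlier results of these data known. The text names the 15 highest and 15 lowest changed genes that reached 10 FPKM in either population and whose libraries did not overlap, leaving out predicted genes, small RNAs, histone and antigen receptor genes and genes listed at 0. It also names members among the 3 highest and 3 lowest of each list with at least 5 FPKM, and 34 key genes. Other genes named as changed are the members behind a list's count, and were named after their values were seen. Replicate numbers were not taken to pair the libraries. Alternatives covered the pseudocount, filter, scaling, fold minimum, fit and each left-out library. Some genes that the rule names are not reported here.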

Additional observations from a re-analysis of the deposited data

How the results depend on the processing

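The counts depended on the pseudocount and on the minimum fold. In the order CD44loCD62L+ against IL-2, cocktail CD44+CD62L- and cocktail CD44+CD62L+ cells, 1771, 221 and 301 genes changed. A pseudocount of 0.1 gave 2479, 463 and 495, and a pseudocount of 5 gave 911, 94 and 178. A minimum log2 fold change of 0.58 gave 4191, 939 and 987, and one of 2 gave 322, 14 and 12. Of the genes changed against IL-2 cells 47.3% were higher, 52.3% with a pseudocount of 0.1 and 58.4% at the minimum of 2. Leaving out 1 library gave 1769 to 1803, 222 to 236 and 301 to 313 genes, of which at least 1739, 211 and 292 were shared with the full set. Another filter or none, median-ratio or quantile scaling, a fit to 6 libraries, no trend, and leaving out small RNAs or genes listed at 0 kept every count within 1.5 times. A stable count can hide a change of genes. Quantile scaling gave 1719, 245 and 312 genes, of which 1554, 209 and 293 were shared with the main fit. No scaling moved the median of all genes by over 0.1. Of 184 named genes that changed, 93 lost the call under some alternative, 90 of them at the minimum of 2 and 15 with a pseudocount of 5, and 0 reversed. With replicate numbers as a block 1772, 220 and 303 genes changed. The deviations of same-numbered CD44loCD62L+ and IL-2 libraries correlated at 0.013, 0.037 and 0.098, and those of the other pairs at -0.065 to 0.035. Libraries 2 and 3 of CD44loCD62L+ correlated best with the IL-2 library of the same number. Library 1 of CD44loCD62L+ correlated best with library 2 of IL-2 (0.035), and the numbers were not taken as pairs. Depth is unknown, so the limit below which a listed 0 says nothing about expression cannot be given.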

Other observations

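The next 15 genes by fold in each direction, listed after their values were seen, added surface and signalling genes outside the lists. Higher in CD44loCD62L+ than in IL-2 cells were Art2b, an ADP-ribosyltransferase of resting T cells (36.8 against 1.68 FPKM), Arrb1, which encodes beta-arrestin 1 (29.01 against 1.57), Rgs11 (60.8 against 5.61), Asap1 (41.6 against 3.601) and Samd3 (17.7 against 0.481). Grtp1 was alike in the 3 cocktail populations (10.7 FPKM in CD44loCD62L+, 10.5 in CD44+CD62L- and 11.2 in CD44+CD62L+ cells) and near 0 in IL-2 (0.103) and naive cells (0.114). Lower were Lat2, an adaptor best known from B and mast cells (3.64 against 61.2 FPKM), Clnk, an adaptor of the SLP-76 family (0.114 against 10.8), Fads2, a fatty acid desaturase (1.699 against 25.02), Prr5, a subunit of mTORC2 (3.81 against 41.1), and Tubb6, a beta-tubulin (8.92 against 90.2).

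Of the changed genes, 9 were listed at 0 in all CD44loCD62L+ libraries and 7 in all IL-2 libraries, and 12 of the changed genes were small RNAs. Among the ribosomal protein genes, Rpl26 and Rpl34 fell while most others lay slightly above IL-2 cells, with Rpl26 at 30.99, 37.5 and 23.7 FPKM against 222, 185 and 215 and Rpl34 at 11.998, 14.1 and 12.1 against 31.04, 29.6 and 37.5. Their spread between libraries was large for genes of this level (SD 19.7 FPKM on a mean of 207 for Rpl26 in IL-2 cells), and ribosomal protein genes have many processed copies in the genome, so their values are uncertain.

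Other motifs searched in the promoters of the lists they are known from gave these shares. TGATGNAA, the ATF4 element, was found in 11 of 31 amino acid response genes (35.5%) against 2.78% of tested genes, and TTCNNNGAA, the STAT5 site, in 5 of 25 IL-2 and STAT5 targets (20%) against 8.26%. CTTTGA, the TCF/LEF site, was found in 4 of 19 naive and central memory genes (21.1%) against 14.0%, and TCACNCCAC, the sterol response element, in 1 of 22 cholesterol synthesis genes (4.55%) against 1.38%. A match describes letters in a window of 250 bases before to 50 after the start.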
